A study of Mus musculus with 4 samples.

Results

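The mitochondrial carriers of the Slc25 family were described in liver RNA from 2 groups of female mice given acetaminophen. Members were all protein-coding genes of the deposited table whose symbol was Slc25a followed by a number, which gave 47 of 54149 listed genes. Levels are in FPKM, which count fragments per 1000 bases of a gene's listed length and per library total. Comparisons between members rest on that listed length, which need not be the length of the transcript made in liver. The relatives Ucp1, Ucp2, Ucp3, Mtch1 and Mtch2 carry other symbols and were kept apart.

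The 2 groups were the Utx KO, in which Utx (listed as Kdm6a) was deleted in the liver, and WT controls matched for age and sex. Both were adult females of a C57BL/6 x 129S4/SvJae background, fasted for 16 h and then injected intraperitoneally with acetaminophen (APAP) at 300 mg/kg, a painkiller whose overdose damages the liver. Nothing in the sources used here gives the promoter that drove the deletion, any floxed alleles in the controls or the time from dosing to collection. Each group had 2 libraries, each made from the pooled RNA of 2 mice, so an error here measures the spread between pools. No untreated mice were analysed here, so every value describes the fasted and dosed liver.

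Carriers of this family sit in the inner mitochondrial membrane, which is impermeable to most metabolites, and exchange or import nucleotides, phosphate, carboxylates, amino acids, cofactors and metal ions. In hepatocytes they connect the matrix steps of the urea cycle, fatty acid oxidation, gluconeogenesis and haem synthesis with the steps in the cytosol. A few members lie elsewhere, in the peroxisome or the outer mitochondrial membrane. The RNA level of a carrier does not give its transport activity.

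Recovered reads came to 17804730 and 16330451 in the KO pools and to 16580979 and 16669038 in the WT pools, of which between 65431 and 74920 belonged to the 47 members. Alb, the albumin gene and the defining marker of hepatocytes, was at 29570 and 21955 FPKM in the KO pools and at 24995 and 29597 FPKM in the WT pools. Kdm6a was at 2.20 and 2.12 FPKM in the KO pools and at 3.40 and 3.85 FPKM in the WT pools (limma adjusted p = 0.0715). Reads of the 2 mitochondrial ribosomal RNAs made up 0.108% and 0.158% of the KO libraries and 0.244% and 0.251% of the WT libraries. Neutrophil markers were lower in the KO, with 4 of 7 tested markers lower, 0 higher and a summed level of 34.5 to 38.8 FPKM in the KO pools against 118 to 179 FPKM in the WT pools. None of the 8 neutrophil markers was at 0 in all 4 pools, and Ly6g was at 0 in 1 WT pool. Of 5 tested erythroid markers 0 passed, and their list summed to 172 and 246 FPKM in the KO pools and to 254 and 279 FPKM in the WT pools. The cholangiocyte list had 1 of 2 tested markers lower, Sox9. It summed to 5.15 and 4.63 FPKM in the KO pools and to 16.9 and 12.4 FPKM in the WT pools. Most of the WT sum was Sox9, at 3.41 and 2.85 FPKM in the KO pools and 13.9 and 11.1 FPKM in the WT pools. Epcam overlapped between the groups, at 1.40 and 1.29 FPKM in the KO pools and 2.00 and 1.06 FPKM in the WT pools. Of the untested markers, Krt19 overlapped too and Krt7 was lower in both KO pools than in either WT pool. By limma's adjusted p, 0 of 6 hepatocyte, 0 of 7 Kupffer cell and macrophage, 0 of 6 sinusoidal endothelial and 0 of 4 stellate markers passed, and no lymphocyte marker reached the level needed for a test. The sinusoidal endothelial list summed to 46.3 and 48.1 FPKM in the KO pools and to 64.7 and 66.1 FPKM in the WT pools. Its median log2 fold change was -0.38, but its markers did not all move alike. Lyve1, Stab1, Stab2 and Pecam1 were lower in both KO pools than in either WT pool. Clec4g and Kdr overlapped between the groups, with log2 fold changes of 0.16 and 0.07. In bulk RNA, fewer cells of a type and less RNA per cell cannot be told apart. The part that these differences in other cells and in ribosomal RNA had in the results below was not tested.

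The family was unevenly expressed. Slc25a5, the main ADP/ATP carrier of liver, was at 315 and 294 FPKM in the KO pools and at 253 and 317 FPKM in the WT pools. It alone took between 22.4% and 24.5% of the family's summed FPKM in each of the 4 pools. Slc25a39, which supports mitochondrial glutathione import, followed at 206 and 199 FPKM in the KO pools and at 156 and 167 FPKM in the WT pools. Slc25a47, a carrier found mainly in liver, Slc25a3, the phosphate carrier, and Slc25a1, the citrate carrier, came next. These 5 made up 65.0% and 63.7% of the summed FPKM in the KO pools and 57.0% and 62.9% in the WT pools. This order and these shares depend on the listed lengths. Slc25a3 and Slc25a5 had 9087 and 9238 reads in KO replicate 1, at listed lengths of 5550 and 1646 bases. The whole family summed to 1309 and 1218 FPKM in the KO pools and to 1133 and 1296 FPKM in the WT pools, so the groups overlapped.

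**Figure D1:**
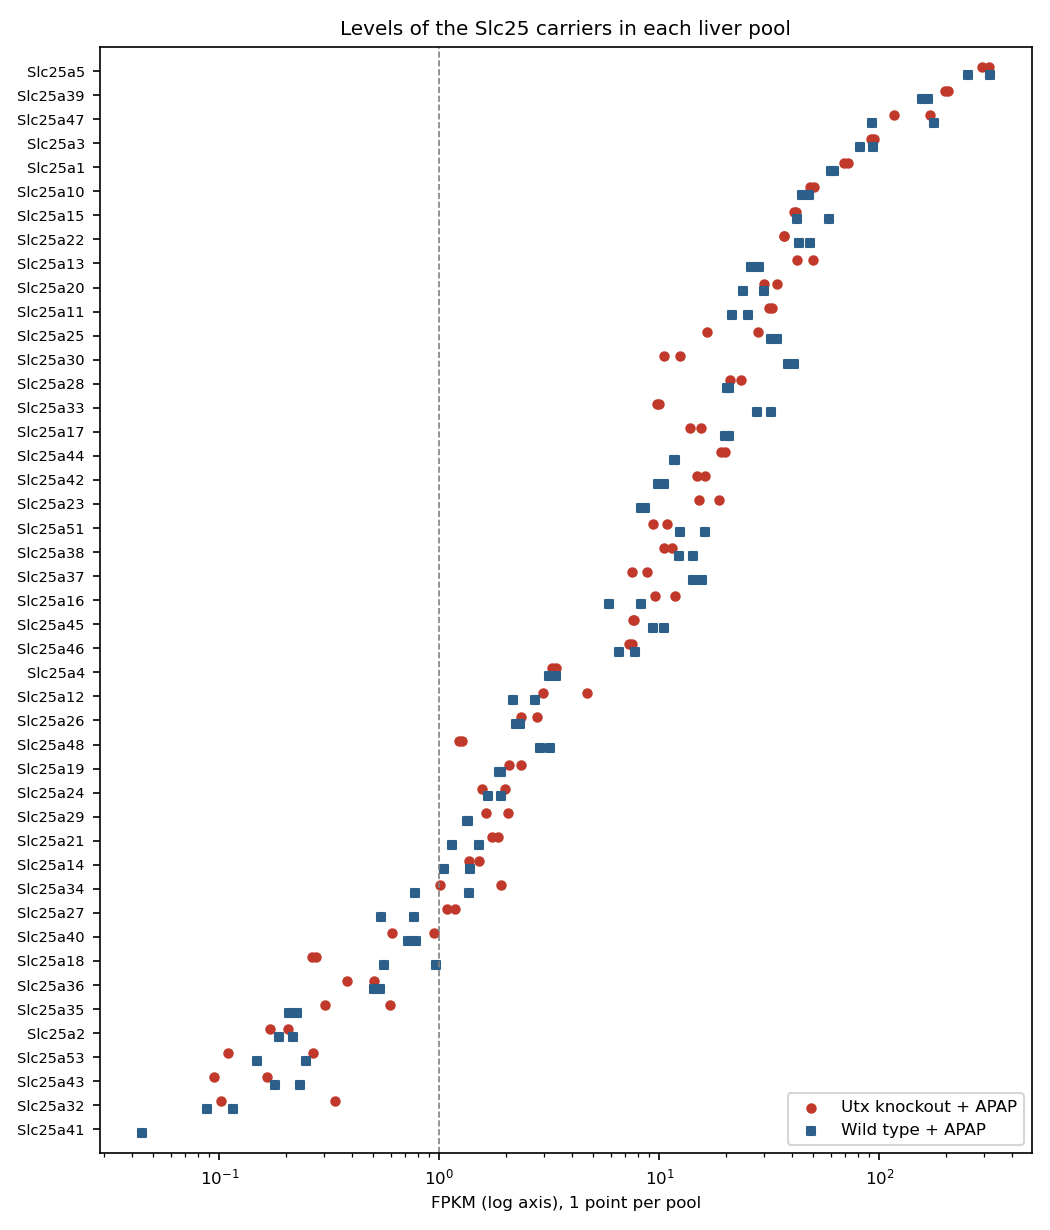
FPKM of the 45 members listed above 0 in at least 1 pool, on a log axis, with 1 circle per Utx KO pool, 1 square per WT pool and a dashed line at 1 FPKM. A pool listed at 0 is not drawn. Slc25a30, Slc25a33 and Slc25a48 have both KO circles well to the left of both WT squares.

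At the other end, 12 members averaged under 1 FPKM over the 4 libraries and were not tested. Slc25a31, the ADP/ATP carrier of the germ line, and Slc25a54 were listed at 0 in all 4 pools. Slc25a41 was listed at 0 in both KO pools and in WT replicate 2, and had 1 read in WT replicate 1. The other untested members reached means of up to 0.893 FPKM, among them Slc25a27, an uncoupling protein-like carrier, at 1.09 and 1.17 FPKM in the KO pools and 0.770 and 0.544 FPKM in the WT pools. Slc25a18, a glutamate carrier, had 9 reads in each KO pool and 18 and 29 reads in the WT pools. Each of the 35 tested members averaged at least 1 FPKM in both groups, so none was tested because of 1 group alone.

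Of the 35 tested members, 6 passed limma's test at an adjusted p under 0.05 (17.1% of them), where 4.74% of all 11900 tested genes passed. Lower in the KO were 4 members, Slc25a30, Slc25a33, Slc25a48 and Slc25a37, where 3.14% of all tested genes were called lower. Higher in the KO were 2 members, Slc25a23 and Slc25a44, where 1.60% of all tested genes were called higher. The other 29 did not pass. The median log2 fold change of the tested members was 0.11, against 0.01 over all tested genes. Of the 35 values 23 were above 0 (65.7%), as were 51.4% over all tested genes. The median was 0.036 with 18 values above 0 without WT replicate 1, and 0.053 with 21 above 0 without KO replicate 1. After rescaling to listed reads it was 0.17, against 0.071 over all tested genes. All fold changes are KO over WT on the log2(FPKM + 0.5) scale, which understates the change of low genes. The groups did not overlap in 26 of the 35 members (74.3%), and in 61.5% of all tested genes, so a lack of overlap between pairs of pools was common.

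**Figure D2:**
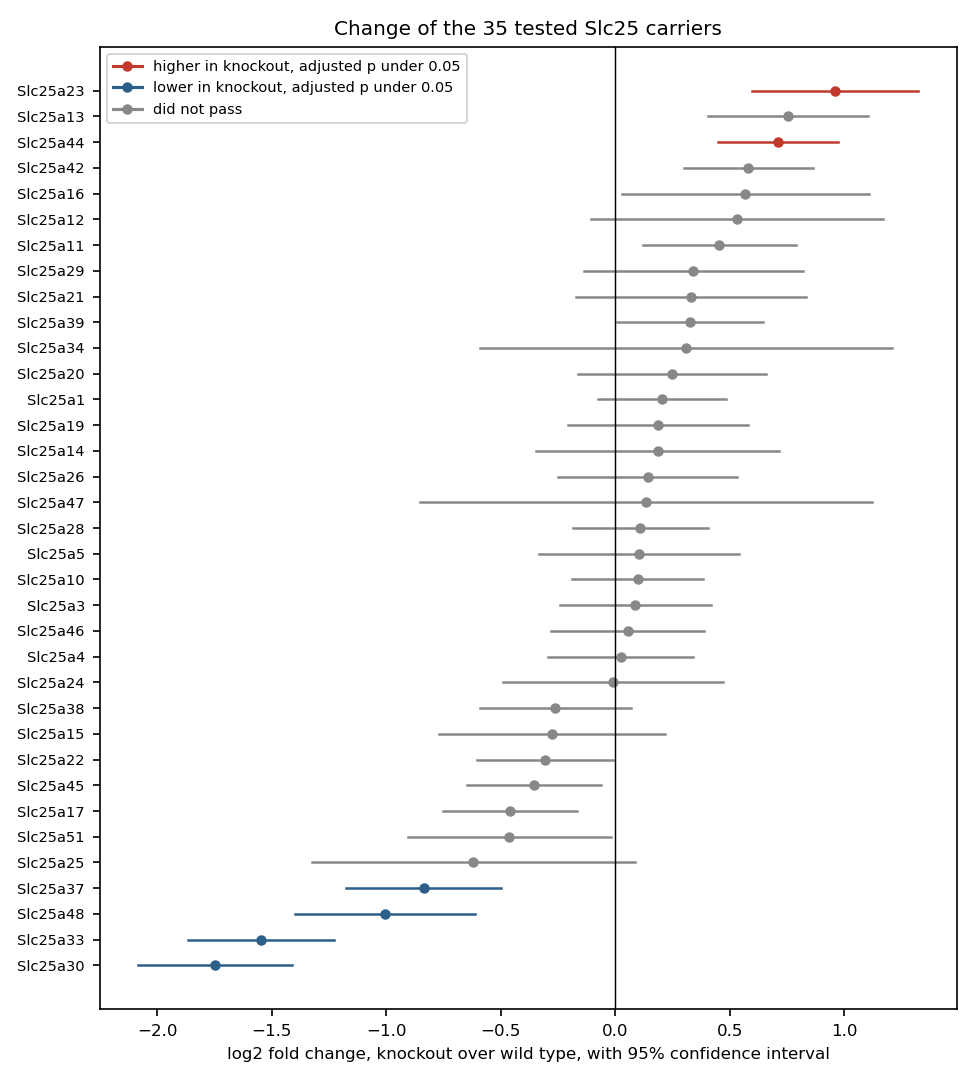
Log2 fold change of the 35 tested members, KO over WT, with 95% confidence intervals from limma, ordered by size. The 4 members called lower run between -1.75 and -0.84, and the 2 called higher are Slc25a23 at 0.96 and Slc25a44 at 0.71.

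Leaving out a library leaves 1 pool in its group, which is then assumed to vary like the 2 pools of the other, and most of these calls were lost. The log2 fold changes of the 6 kept their direction, at -1.86 to -1.63 for Slc25a30, -1.66 to -1.44 for Slc25a33, -1.07 to -0.94 for Slc25a48, -0.95 to -0.73 for Slc25a37, 0.81 to 1.10 for Slc25a23 and 0.68 to 0.74 for Slc25a44. Without KO replicate 2, Slc25a30 and Slc25a33 were the members that passed, among 234 genes in all. Without KO replicate 1 no member passed, with 9 members at an unadjusted p under 0.05 and 5 genes called in all. Without WT replicate 1 no member passed either, with 10 members at an unadjusted p under 0.05 and 30 genes called. Leaving out WT replicate 2 left no gene called at all by limma, with 2662 genes, 14 of them members, at an unadjusted p under 0.05. With limma voom on the recovered reads of all 4 libraries, 8 members passed.

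The largest fall was of Slc25a30, an uncoupling protein-like carrier also called kidney mitochondrial carrier protein. Slc25a30 (ENSMUSG00000022003, GRCm38 chromosome 14, 75760117 to 75787037, minus strand) was at 10.5 and 12.4 FPKM in the KO pools, against 38.4 and 40.9 FPKM in the WT pools. Both KO pools lay far below both WT pools, and the difference was many times the spread within either pair. It fell by 1.75 on the log2 scale (SE 0.13, 95% confidence interval -2.08 to -1.41, limma adjusted p = 0.0258). Mean levels were 11.5 ± 1.34 FPKM in the KO and 39.7 ± 1.82 FPKM in the WT (SD, n = 2 pools each), a ratio of 0.290.

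The other uncoupling protein-like carrier tested, Slc25a14, did not pass, at 1.52 and 1.36 FPKM in the KO pools and 1.05 and 1.37 FPKM in the WT pools. Ucp2, an uncoupling protein outside the Slc25a symbols, was at 5.24 and 10.3 FPKM in the KO pools and at 10.1 and 10.2 FPKM in the WT pools (limma adjusted p = 0.417). The low value belonged to KO replicate 1 alone, and the groups overlapped.

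Slc25a33, which carries pyrimidine nucleotides into mitochondria, fell by nearly as much. Slc25a33 (ENSMUSG00000028982, chromosome 4, 149744036 to 149774277, minus strand) was at 9.99 and 9.77 FPKM in the KO pools, against 27.6 and 32.2 FPKM in the WT pools. The KO pools were close to each other and clearly below both WT pools. Its log2 fold change came to -1.55 (SE 0.12, 95% confidence interval -1.87 to -1.23, limma adjusted p = 0.0258). These values rest on 336 and 316 reads in the KO pools and on 882 and 955 reads in the WT pools. An antisense gene that overlaps it, Gm13068, had at most 7 reads in any pool.

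Slc25a48, a carrier linked to mitochondrial choline uptake, was the lowest expressed of the called members. Slc25a48 (ENSMUSG00000021509, chromosome 13, 56438355 to 56474239, plus strand) was at 1.26 and 1.23 FPKM in the KO pools, against 2.86 and 3.17 FPKM in the WT pools. No KO pool reached the lower WT pool. The log2 fold change was -1.01 (SE 0.15, limma adjusted p = 0.0429), and the ratio of means was 0.414.

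Of the 2 iron carriers, 1 passed the test. Slc25a37, mitoferrin 1, brings iron into the matrix for haem and iron-sulfur clusters and is most strongly expressed in red cell precursors. Slc25a37 (ENSMUSG00000034248, chromosome 14, 69241848 to 69285112, minus strand) was at 8.81 and 7.50 FPKM in the KO pools, against 15.6 and 14.2 FPKM in the WT pools. Its log2 fold change was -0.84 (SE 0.13, limma adjusted p = 0.0456), the call nearest the threshold, and it was lost in 9 of 18 alternative settings. Slc25a28, mitoferrin 2, was at 23.5 and 20.9 FPKM in the KO pools and at 20.3 and 20.8 FPKM in the WT pools, with a log2 fold change of 0.11 (95% confidence interval -0.19 to 0.40). It was 0.026 without KO replicate 1 and 0.19 without KO replicate 2. The ratio of Slc25a37 to Slc25a28 was 0.375 and 0.358 in the KO pools and 0.769 and 0.687 in the WT pools. An exact permutation test of this ratio gave p = 0.333 (two-sided), the smallest that 2 pools against 2 allow. Among the other cells, 4 of 7 neutrophil markers and 0 of 5 erythroid markers passed as lower in the same KO pools. All 5 tested erythroid markers had a lower mean in the KO pools, with KO to WT ratios between 0.769 and 0.943.

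The RefSeq promoter windows of 4 called members, 3 that fell and 1 that rose, are shown so that the sequence at each start can be read beside its change. Each runs from 250 bases before to 50 bases after the annotated start, 5′ to 3′ on the gene's strand, from the RefSeq table on GRCm38.p6. Capitals mark matches to CCAAT and to CACGTG, on either strand. The windows are chr14:75786988-75787287 (minus strand) for Slc25a30, chr4:149774218-149774517 (minus) for Slc25a33, chr13:56438105-56438404 (plus) for Slc25a48 and chr17:57059814-57060113 (minus) for Slc25a23.
Slc25a30: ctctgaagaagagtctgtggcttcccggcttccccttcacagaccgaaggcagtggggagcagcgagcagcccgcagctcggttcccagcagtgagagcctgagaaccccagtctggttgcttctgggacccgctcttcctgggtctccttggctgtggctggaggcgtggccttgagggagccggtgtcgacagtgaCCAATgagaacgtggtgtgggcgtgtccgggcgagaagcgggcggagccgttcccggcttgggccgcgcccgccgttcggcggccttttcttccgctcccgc
Slc25a33: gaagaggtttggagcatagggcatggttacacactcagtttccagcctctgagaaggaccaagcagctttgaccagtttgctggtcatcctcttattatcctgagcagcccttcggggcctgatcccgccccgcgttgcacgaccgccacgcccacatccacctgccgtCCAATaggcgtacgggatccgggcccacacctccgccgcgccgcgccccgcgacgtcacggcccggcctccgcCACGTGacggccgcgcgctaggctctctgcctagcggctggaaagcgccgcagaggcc
Slc25a48: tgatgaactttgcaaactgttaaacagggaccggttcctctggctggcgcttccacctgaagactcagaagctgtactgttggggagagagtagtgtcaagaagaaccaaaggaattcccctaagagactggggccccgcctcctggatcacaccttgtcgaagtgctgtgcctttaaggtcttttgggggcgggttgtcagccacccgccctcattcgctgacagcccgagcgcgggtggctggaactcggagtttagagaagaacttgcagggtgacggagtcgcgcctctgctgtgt
Slc25a23: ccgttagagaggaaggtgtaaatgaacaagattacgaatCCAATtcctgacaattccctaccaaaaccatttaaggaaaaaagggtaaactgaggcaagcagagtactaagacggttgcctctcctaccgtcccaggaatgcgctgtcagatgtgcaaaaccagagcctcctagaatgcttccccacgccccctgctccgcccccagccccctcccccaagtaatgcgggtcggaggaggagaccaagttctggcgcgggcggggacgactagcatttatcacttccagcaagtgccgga

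Of the 6 motifs searched, the 3 falling members with a window held 2. Slc25a33 had the E-box CACGTG from base -8 to base -3, counted from the annotated start at 0, which occurs in 4 of 29 windows of tested members, its own included, and in 7.17% of 32544 RefSeq windows. Slc25a30, Slc25a33 and the rising Slc25a23 each had 1 CCAAT, which was found in 16 of the 29 windows and 37.4% of all. Slc25a48 had no match to any of the 6. The AP-1 motif TGANTCA (7.79% of all windows) was found in 2 member windows, of Slc25a11 and Slc25a13, and in Slc25a13 it overlapped an E-box. The cyclic AMP response element TGACGTCA (1.8% of all) and the ATF composite motif TGATGNAA (3.91%) were found in no window of a tested member. GCGTGGGCG, the EGR motif (0.618% of all windows), was in 3 of the 29 windows, none of them of a called member. A match is a description of the letters in the window only.

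**Figure D3:**
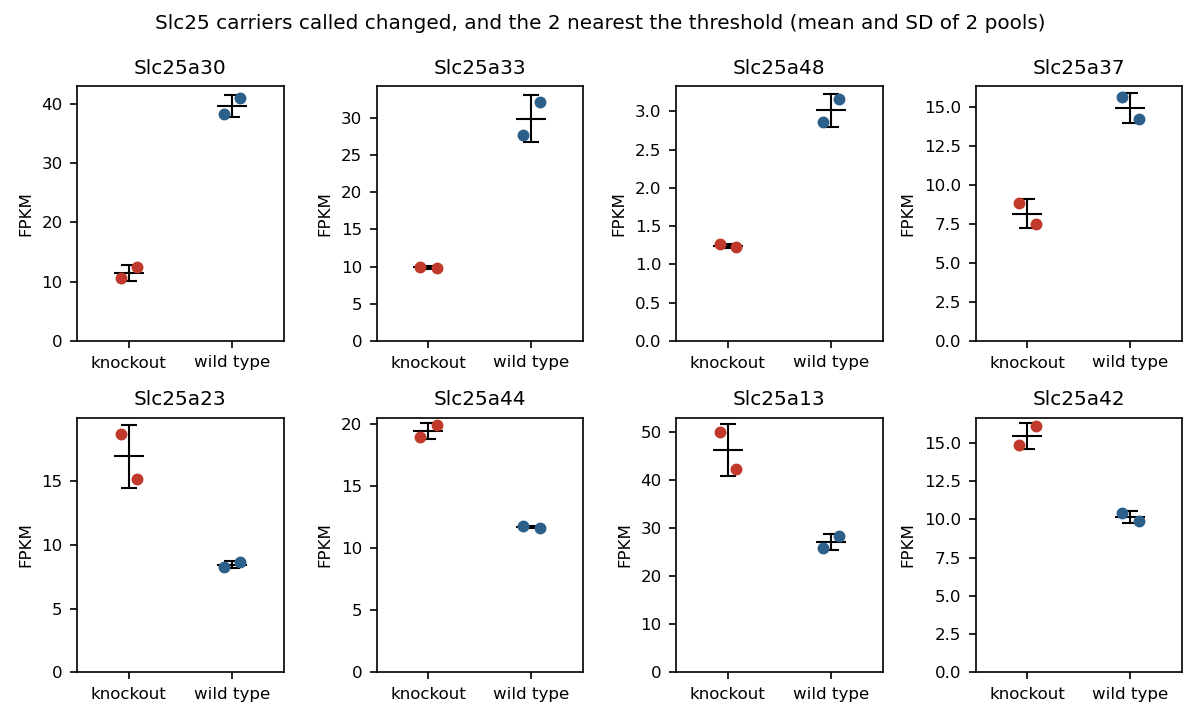
FPKM of the 6 called members and of Slc25a13 and Slc25a42, the members nearest the threshold, in the Utx KO (left) and WT (right) pools, with 1 point per pool and the mean ± SD of 2 pools. In all 8 panels the groups do not overlap, which also held for 61.5% of all tested genes. The panels were picked by adjusted p, which favours such separation.

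The carriers of ADP, ATP and phosphate had 6 tested members, of which 1 rose, 0 fell and 5 stayed short of the threshold. Slc25a23 (ENSMUSG00000046329, chromosome 17, 57043711 to 57059863, minus strand), a calcium-regulated carrier that exchanges ATP-Mg for phosphate, was at 18.7 and 15.2 FPKM in the KO pools, against 8.23 and 8.61 FPKM in the WT pools. Both KO pools were higher, and the log2 fold change was 0.96 (SE 0.14, limma adjusted p = 0.0426). Reads on Slc25a23 numbered 1761 and 1377 in the KO pools and 737 and 717 in the WT pools. The gene overlaps Crb3 on the other strand over 759 bases, and Crb3 had 344 and 299 reads in the KO pools and 298 and 241 in the WT pools. Strand marking is not stated, so reads in the shared stretch cannot be assigned with certainty.

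Slc25a25, a relative with the same substrates, was at 16.4 and 27.9 FPKM in the KO pools and at 32.2 and 34.2 FPKM in the WT pools. The KO pools differed from each other by more than the WT pools did, and the log2 fold change of -0.62 did not pass (SE 0.27, 95% confidence interval -1.32 to 0.08). The ratio of Slc25a23 to Slc25a25 was 1.14 and 0.543 in the KO pools and 0.255 and 0.252 in the WT pools (exact permutation p = 0.333, the smallest possible). Slc25a24, the third of this group above the filter, was at 1.98 and 1.56 FPKM in the KO pools and 1.65 and 1.91 FPKM in the WT pools.

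The most abundant carriers of oxidative phosphorylation did not pass the test. Slc25a5 had a log2 fold change of 0.10 (95% confidence interval -0.33 to 0.54) and Slc25a3 one of 0.09 (-0.24 to 0.42). Slc25a3 was at 91.9 and 94.5 FPKM in the KO pools and at 81.9 and 93.9 FPKM in the WT pools. Slc25a4, the ADP/ATP carrier of heart and muscle, was at 3.27 and 3.40 FPKM in the KO pools and at 3.14 and 3.41 FPKM in the WT pools. For these 3 the groups overlapped, and without WT replicate 1 the fold changes of Slc25a5 and Slc25a3 were -0.059 and -0.011. Of the 14 ATP synthase subunits, which use the ADP and phosphate these carriers bring in, 0 passed, with a median log2 fold change of 0.30. Over all tested genes 4.74% passed.

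The amino acid carriers had 7 tested members, of which 1 rose and 0 fell, with 6 short of the threshold. Slc25a44 (ENSMUSG00000050144, chromosome 3, 88410498 to 88425139, minus strand), which carries branched-chain amino acids into mitochondria, was at 19.0 and 19.9 FPKM in the KO pools, against 11.8 and 11.6 FPKM in the WT pools. Pools of a group lay within 1 FPKM of each other, and the groups were far apart. The log2 fold change was 0.71 (SE 0.10, limma adjusted p = 0.0418), and the ratio of means was 1.66.

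Slc25a13, citrin, exchanges aspartate for glutamate and serves both the urea cycle and the malate-aspartate shuttle. Slc25a13 (ENSMUSG00000015112, chromosome 6, 6041218 to 6217173, minus strand) was at 50.1 and 42.4 FPKM in the KO pools and at 26.0 and 28.4 FPKM in the WT pools. The groups were apart, but the log2 fold change of 0.75 (SE 0.13, 95% confidence interval 0.40 to 1.10) missed the threshold at a limma adjusted p of 0.0540. It passed in 6 of 18 alternatives, with adjusted p from 0.0318 to 0.189. Slc25a12, the paralog that predominates in muscle and brain, was at 4.67 and 2.97 FPKM in the KO pools and at 2.16 and 2.73 FPKM in the WT pools. The ratio of Slc25a13 to Slc25a12 was 10.7 and 14.3 in the KO pools and 12.0 and 10.4 in the WT pools, so the groups overlapped (exact permutation p = 0.667).

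**Figure D4:**
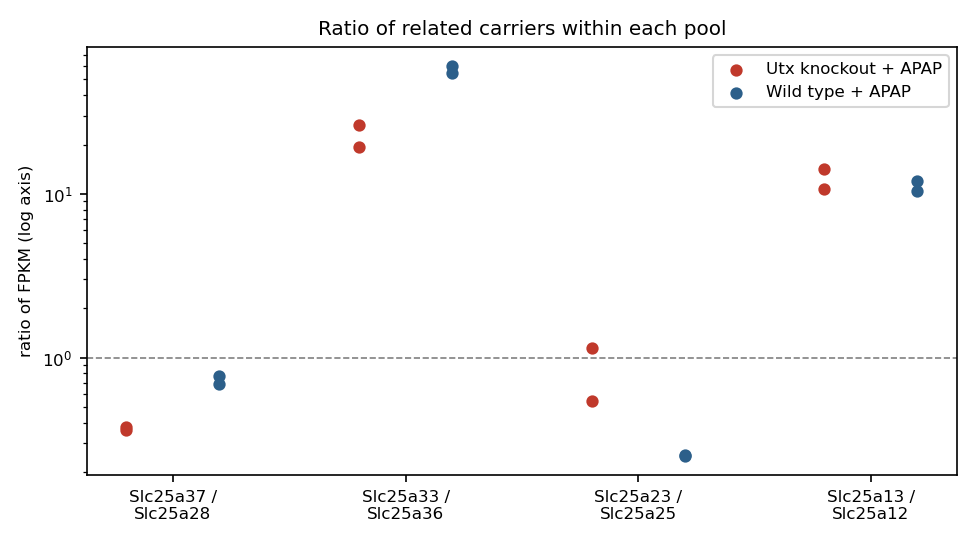
Ratio of the FPKM of related carriers within each pool, on a log axis, with 1 point per Utx KO pool (left of each pair) and per WT pool (right). The ratio of Slc25a37 to Slc25a28 is 0.375 and 0.358 in the KO pools and 0.769 and 0.687 in the WT pools, while that of Slc25a13 to Slc25a12 overlaps.

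Slc25a15, which exchanges ornithine for citrulline in the urea cycle, was at 41.8 and 40.8 FPKM in the KO pools and at 59.3 and 42.4 FPKM in the WT pools, with a log2 fold change of -0.28 (95% confidence interval -0.77 to 0.22). The high value belonged to WT replicate 1 alone. Slc25a22, a glutamate carrier, was at 37.0 and 36.9 FPKM in the KO pools and at 48.5 and 43.3 FPKM in the WT pools (limma adjusted p = 0.176). Slc25a38, which imports glycine for haem synthesis, was at 10.5 and 11.4 FPKM in the KO pools and at 14.3 and 12.3 FPKM in the WT pools (adjusted p = 0.256 in limma). All 3 were lower in both KO pools than in either WT pool without passing. A lack of overlap was common, at 61.5% of all tested genes.

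Of the 6 urea cycle enzymes 0 passed, where 4.74% of all tested genes did, with a median log2 fold change of 0.13. Of the 4 malate-aspartate shuttle enzymes 1 passed, Got1, the cytosolic aspartate aminotransferase, which was lower at 56.01 ± 3.44 FPKM in the KO against 110.7 ± 15.1 FPKM in the WT pools (SD, n = 2 pools each, limma adjusted p = 0.0433). Among 12 genes of haem synthesis and mitochondrial iron 0 passed by limma's adjusted p, with a median log2 fold change of 0.42. The first enzyme of haem synthesis, Alas1, was at 142 and 208 FPKM in the KO pools and at 76.6 and 68.1 FPKM in the WT pools (adjusted p = 0.0540 in limma).

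Of the 4 carriers of di- and tricarboxylates and keto acids, 0 passed at an adjusted p under 0.05. Slc25a1, which exports citrate for lipid synthesis, was at 69.1 and 72.0 FPKM in the KO pools and at 62.4 and 60.1 FPKM in the WT pools, with a log2 fold change of 0.20 (95% confidence interval -0.08 to 0.48). Slc25a10, the dicarboxylate carrier, was at 50.4 and 48.3 FPKM in the KO pools and at 44.4 and 47.8 FPKM in the WT pools. Slc25a11, which exchanges oxoglutarate for malate, was at 32.7 and 31.6 FPKM in the KO pools and at 25.4 and 21.4 FPKM in the WT pools, with the largest fold change of the 4 at 0.45 (SE 0.13, limma adjusted p = 0.111). Slc25a11 overlaps Rnf167 on the other strand over 245 bases, and Rnf167 had 770 and 638 reads in the KO pools and 450 and 419 reads in the WT pools. Each of these 3 was higher in both KO pools than in either WT pool, and 61.5% of all tested genes likewise did not overlap. Of 8 genes that make or use citrate, 1 passed, where 4.74% of all tested genes did. It was Acacb, an acetyl-CoA carboxylase that was higher in the KO at 15.4 and 15.0 FPKM, against 6.28 and 4.99 FPKM in the WT pools.

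Slc25a20, which brings acylcarnitines into the matrix for fatty acid oxidation, was at 34.2 and 29.9 FPKM in the KO pools and at 24.1 and 30.0 FPKM in the WT pools. The groups overlapped narrowly, and the log2 fold change was 0.25 (95% confidence interval -0.16 to 0.66). It was 0.093 without WT replicate 1 and 0.40 without WT replicate 2. Of 5 tested genes of the carnitine shuttle and carnitine uptake 0 passed, where 4.74% of all tested genes did, with a median of -0.19.

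Among 8 tested carriers of nucleotides, cofactors and glutathione, 1 fell (Slc25a33), 0 rose and 7 did not pass. Slc25a42, the coenzyme A carrier, was at 14.8 and 16.1 FPKM in the KO pools and at 10.4 and 9.90 FPKM in the WT pools. Its log2 fold change of 0.58 (SE 0.11, 95% confidence interval 0.30 to 0.86) missed the threshold at a limma adjusted p of 0.0573, and it passed in 4 of 18 alternatives. Slc25a17, the peroxisomal carrier of coenzyme A, FAD and NAD, was at 15.4 and 13.8 FPKM in the KO pools and at 19.9 and 20.6 FPKM in the WT pools, with a log2 fold change of -0.46 (limma adjusted p = 0.0885). Slc25a51, the NAD carrier, was at 10.8 and 9.40 FPKM in the KO pools and at 16.1 and 12.4 FPKM in the WT pools (limma adjusted p = 0.171).

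Slc25a16, a carrier linked to coenzyme A, was at 11.8 and 9.53 FPKM in the KO pools and at 5.88 and 8.28 FPKM in the WT pools (limma adjusted p = 0.170). Slc25a39 had a log2 fold change of 0.33 (95% confidence interval 0.01 to 0.64, limma adjusted p = 0.176), and Slc25a40, its near relative, was too low to be tested. Slc25a36, the other pyrimidine nucleotide carrier, was also under the filter, at 0.380 and 0.505 FPKM in the KO pools and 0.506 and 0.537 FPKM in the WT pools. The ratio of Slc25a33 to Slc25a36 was 26.3 and 19.4 in the KO pools and 54.7 and 59.9 in the WT pools, which did not overlap (exact permutation p = 0.333, the smallest possible).

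Of 5 tested members of the outer membrane or placed in the group without an established substrate, Slc25a48 fell and 4 did not pass. Slc25a47 varied most within a group of the highly expressed carriers, at 169 and 116 FPKM in the KO pools and at 92.2 and 177 FPKM in the WT pools. The groups overlapped widely, and the log2 fold change of 0.13 had a 95% confidence interval of -0.85 to 1.12. Slc25a45 was at 7.68 and 7.55 FPKM in the KO pools and at 10.5 and 9.34 FPKM in the WT pools (limma adjusted p = 0.134). Slc25a46, an outer membrane protein of mitochondrial fission, was at 7.30 and 7.53 FPKM in the KO pools and at 6.52 and 7.78 FPKM in the WT pools.

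Some members neighbour each other in the genome. Slc25a29, a carrier of basic amino acids, and Slc25a47 lie head to head on chromosome 12, with 162 bases between their listed gene models (108835883 and 108836046 on GRCm38). Their levels were far apart, with Slc25a29 at 2.05 and 1.63 FPKM in the KO pools and at 1.34 and 1.34 FPKM in the WT pools. The RefSeq start of Slc25a47 lies 15083 bases inside the listed model, so the short gap holds for the longest model only. Slc25a41 and Slc25a23 lie on the same strand of chromosome 17, 2056 bases apart. Slc25a23 rose there while Slc25a41 had at most 1 read in any pool. Slc25a43 and Slc25a5 are 18448 bases apart on the X chromosome, and Slc25a43 had between 3 and 7 reads in each pool.

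Inner membrane transporters outside the family and the proteins that import carriers were read in the same fit. Of 15 tested transporters, among them the pyruvate carrier and the calcium uniporter, 0 passed by limma's adjusted p, with a median log2 fold change of 0.29. Mcu, the pore of the calcium uniporter, came nearest, at 3.14 and 2.62 FPKM in the KO pools and 5.48 and 5.23 FPKM in the WT pools (limma adjusted p = 0.0504). Of 13 outer membrane channels and import proteins 0 passed, with a median of 0.15. The 3 tested relatives Ucp2, Mtch1 and Mtch2 did not pass either. Since 4.74% of all tested genes passed, a count of 0 says little about lists this short.

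The 6 called members kept their direction in every alternative setting in which they were tested. Slc25a30 and Slc25a33 lost the call in 4 of 18 settings each, Slc25a48 and Slc25a23 in 7 of 17 and 7 of 18, Slc25a44 in 8 of 18 and Slc25a37 in 9 of 18. Their fold changes ranged from -1.86 to -1.63 for Slc25a30, from -1.66 to -1.44 for Slc25a33 and from 0.81 to 1.10 for Slc25a23.

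**Figure D5:**
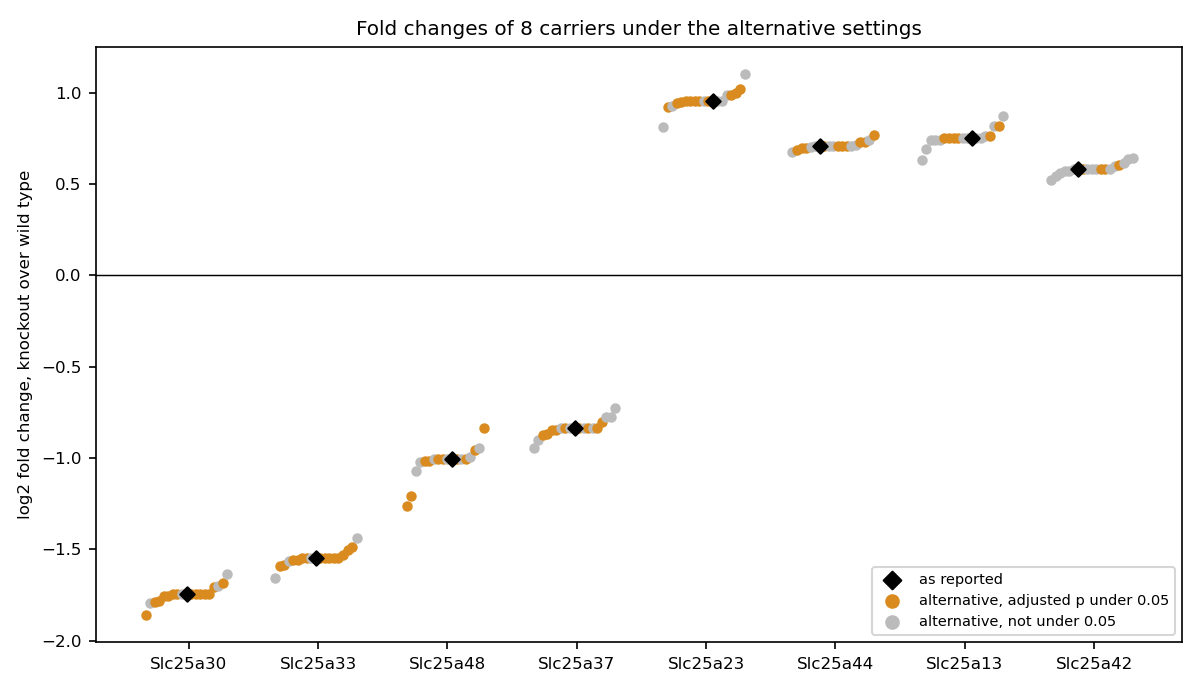
Log2 fold change, KO over WT, of 8 carriers as reported (black diamond) and under each alternative setting (circles, coloured where the limma adjusted p was under 0.05), sorted by value within a gene. No circle lies across 0 from its diamond, and Slc25a30 stays between -1.86 and -1.63.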

How the data were processed

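RNA of pooled livers was poly(A)-selected and reverse transcribed with random hexamers, per the labels' protocols. Per the submitters' processing notes, HISAT2 2.0.5 had aligned the reads to mm10 (GRCm38.p6). The sources used here do not give the counting program, its annotation release or its strand setting. The authors deposited 1 table of FPKM, scaled by gene length and a library total, with lengths and coordinates per the file headers. Columns were matched to samples by genotype and replicate number, with 0 sample columns left out. FPKM times length were whole multiples of 1 step for 100.0% of values above 0 (within 0.01 read), so reads were recovered. The totals implied by the FPKM were 1.00, 1.05, 1.02 and 0.943 times the listed reads of KO replicates 1 and 2 and WT replicates 1 and 2.

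Genes averaging at least 1 FPKM entered limma 3.58.1 (R 4.3.3) on the log2(FPKM + 0.5) scale (eBayes with a trend, two-sided, Benjamini-Hochberg over 11900 genes, threshold 0.05). The fit had 2 residual and 2.59 prior degrees of freedom. It was also run on simulated reads with the same variance setting for every gene and no added shifts between pools. That run does not give the rate of false calls in these pools. The pools of a group differed by far more than sampling noise (chi-square per gene 35.3 in KO and 43.1 in WT). The members and lists were chosen with earlier results of these data known, and the CCAAT motif after the promoter sequences had been read. Named were called members, the 10 largest changes, the 8 highest levels and members with a known liver role, with Slc25a12, Slc25a17, Slc25a28, Slc25a45 and Slc25a51 and members given by level added after their values were seen. Alternatives were the pseudocount, filter, scaling, limma variant, a test of protein-coding genes alone, voom on the recovered reads, a replicate block and leaving out each library. Rescaling to listed reads, a minimum of 50 reads and a crossed block were chosen after seeing the data. RefSeq promoter windows on GRCm38.p6 were used for 36 members. Members on chromosome 18, Slc25a46 and Slc25a2, were left out of these windows. That chromosome was not removed from the shares over all RefSeq windows. Figures were drawn with matplotlib 3.10.9 in Python 3.11.15.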

Additional observations from a re-analysis of the deposited data

How the results depend on the processing

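With 4 libraries, limma called 564 genes, among them 2 members higher and 4 lower. The counts moved by over 1.5 times with no filter on low values (0 genes, 0 members higher and 0 lower, with 4388 genes and 14 members at an unadjusted p under 0.05, where 26643 genes were tested), with no trend in limma (280 genes, 0 higher), with limma voom on recovered reads (1105 genes, 4 higher), with protein-coding genes alone (1014 genes, 4 higher) and with at least 50 reads on average (867 genes, 4 higher). Filtering at a mean of 5 FPKM, 4 members were called higher, and Slc25a48 was no longer tested. Leaving out 1 library gave between 0 and 234 genes, between 0 and 0 members higher and between 0 and 2 lower. A replicate block gave 310 genes, 0 members higher and 2 lower, namely Slc25a30 and Slc25a33. The labels do not say that a number marks a pairing, and deviations of same-numbered pools correlated at -0.14 across genes. A crossed replicate block gave 552 genes, 2 members higher (Slc25a13 and Slc25a23) and 2 lower (Slc25a30 and Slc25a33). There Slc25a13 gained its call, and the limma adjusted p was 0.0522 for Slc25a44, 0.0559 for Slc25a48 and 0.0608 for Slc25a37. The cause of these moves was not tested, beyond the change in genes or libraries that each setting makes. Without WT replicate 1 the log2 fold change turned negative for Slc25a3 (-0.011), Slc25a5 (-0.059) and Slc25a47 (-0.34), and without KO replicate 1 for Slc25a47 (-0.14). Leaving out single libraries otherwise gave up to 0.19 for Slc25a3, 0.26 for Slc25a5 and 0.60 for Slc25a47. Members averaging under 1 FPKM were left out of the main fit by the filter, so no statement on their change is made. Not all of them had few reads, as Slc25a40 had between 91 and 136 in each pool.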
